A study of Mus musculus with 15 samples.

Results

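The 4 Fos genes (*Fos*, *Fosb*, *Fosl1*, *Fosl2*) and the 3 Jun genes (*Jun*, *Junb*, *Jund*) were compared by their relative amounts in mouse ear. They were found by exact gene symbol, and these 7 genes are part of the 21110 genes with a value in each library. For every mouse, the share of each gene in the summed Fos and in the summed Jun mRNA was computed, in addition to the level and the change of each gene. The 7 genes were selected on their FPKM in these mice and the differences between the 4 groups, so their levels, shares and changes are given as a description, without a test.

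The study compared wild type mice with mice that lack *Socs3* in cells expressing keratin 5 (*Socs3* cKO), at 2 and at 10 weeks of age. All mice had a C57BL/6 background. RNA was taken from ear specimens with TRIzol, although the labels name keratinocytes as the source, so other cells of the ear contribute to every value. Each library came from 1 mouse, and there were 4 *Socs3* cKO mice per age, 4 wild type mice aged 2 weeks and 3 aged 10 weeks. Each value is an FPKM, the number of fragments scaled to the length of the gene and to the mapped reads of the library. Levels of genes of different length can be compared on this scale, apart from the trends with length and GC content described below.

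Fos and Jun proteins are subunits of the transcription factor AP-1. Fos proteins bind DNA only together with a partner such as a Jun protein, while Jun proteins also pair among themselves. The choice of subunits decides how strongly a dimer activates its targets. c-Fos and FosB carry strong activation domains, which Fra-1 (from *Fosl1*) and Fra-2 (from *Fosl2*) lack. JunB activates more weakly than c-Jun on many promoters, and JunD is known as the subunit that resting cells express. In the epidermis the subunits are found in different layers, where they act on growth, cornification and the response to injury.

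The start regions of 4 of the genes are shown because these genes lead the family totals in different groups, *Fosl2* and *Jund* in the wild type and *Fos* and *Junb* in *Socs3* cKO mice at 10 weeks. Each line is the 250 bases before the RefSeq start, 5′ to 3′ on the strand of the gene, taken from RefSeq promoters of GRCm38.p6 and found exactly once on its chromosome in mm9, the build of the files. They lie at chr12:86814590-86814839 (+) for *Fos*, chr8:87502648-87502897 (-) for *Junb*, chr5:32438595-32438844 (+) for *Fosl2* and chr8:73221388-73221637 (+) for *Jund*. No annotated exon falls within them. Capitals mark TGACG, the core of the cAMP response element, and a match to the box that the TATA-binding protein recognizes.
Fos: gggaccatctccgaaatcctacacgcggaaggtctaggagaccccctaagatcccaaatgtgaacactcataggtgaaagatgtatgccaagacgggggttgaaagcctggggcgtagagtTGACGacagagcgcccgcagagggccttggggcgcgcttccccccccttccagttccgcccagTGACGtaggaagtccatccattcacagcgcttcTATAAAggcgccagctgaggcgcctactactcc
Junb: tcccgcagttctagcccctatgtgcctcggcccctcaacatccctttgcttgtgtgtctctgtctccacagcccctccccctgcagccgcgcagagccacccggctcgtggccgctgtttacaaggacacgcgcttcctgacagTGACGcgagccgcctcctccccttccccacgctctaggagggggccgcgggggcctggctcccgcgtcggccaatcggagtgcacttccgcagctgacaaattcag
Fosl2: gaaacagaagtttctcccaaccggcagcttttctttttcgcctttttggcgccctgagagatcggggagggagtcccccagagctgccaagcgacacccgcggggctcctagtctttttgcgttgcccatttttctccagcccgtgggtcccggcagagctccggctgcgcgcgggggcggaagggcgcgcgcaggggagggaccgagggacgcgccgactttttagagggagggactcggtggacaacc
Jund: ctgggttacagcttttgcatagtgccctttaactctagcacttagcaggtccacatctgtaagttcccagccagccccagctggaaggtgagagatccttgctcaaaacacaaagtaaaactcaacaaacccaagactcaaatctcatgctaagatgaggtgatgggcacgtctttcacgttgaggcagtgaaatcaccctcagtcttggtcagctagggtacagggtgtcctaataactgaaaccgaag
On either strand this core was found 2 times before *Fos*, 1 time before *Junb* and 1 time before *Fosb*, and 17.8% of 32851 RefSeq windows of this length hold it. The sequence TATAAA was found before *Fos* alone among the 6 windows searched, and 12.4% of all windows hold it. The *Jun* window held TGACATCA, a variant AP-1 site, which 2.93% of windows hold. None of these 3 motifs occurred in the *Fosl2* and *Jund* windows. The AP-1 site TGANTCA, the STAT site TTCNNNGAA, the full cAMP response element TGACGTCA and the CArG box were in none of the 6 windows, with 6.75%, 7.02%, 1.55% and 1.47% of all windows holding them. GGGCGG, a GC box, overlapped none of these and was found before *Fos*, *Fosb*, *Fosl2* and *Jun*, as in 32.7% of windows. A match of letters is a description of the sequence only. Bases further than 250 before the start were not searched, so sites there are not covered. *Fosl1* had no entry.

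The depth of the libraries is not given and was estimated from the smallest steps in the values at 11600000 to 16800000 mapped reads. By that estimate every gene except *Fosl1* rested on at least 24.9 reads in each mouse. *Fosl1* rested on 14.3 reads at most outside *Socs3* cKO mice at 10 weeks and on 746 to 1540 reads within them. In *Socs3* cKO replicate 1 at 2 weeks, the genes with the highest GC content lay at -2.12 on the log2 scale relative to those with the lowest (outer quartiles), against -0.38 to 0.73 in the other 14 libraries. Across genes, the correlations of this mouse with its own group ran from r = 0.937, a value shared with replicate 2, to 0.955. Values without replicate 1 are given beside several of the results at 2 weeks. The wild type libraries at 10 weeks also stood apart, with 1414 to 3176 genes at 0 FPKM against 4044 to 4423 in the other 12 libraries, and their genes of the longest exon length lay at -0.84 to -0.20 relative to the shortest (log2, outer quartiles), against -0.32 to 0.34 in *Socs3* cKO mice of that age. The part of these differences in the results was not tested. Library numbers in the labels do not mix between the 4 groups, and a batch of libraries cannot be told apart from a group. The targeted gene *Socs3* had 9.71, 10.2, 10.3 and 10.3 FPKM in the wild type at 2 weeks and 1.25, 9.32, 12.6 and 3.51 FPKM in *Socs3* cKO mice. At 10 weeks it had 2.76, 4.81 and 2.02 FPKM in the wild type and 36.5, 29.8, 47.7 and 32.4 FPKM in *Socs3* cKO mice, so its mRNA was not lower in the ears of older mice labelled *Socs3* cKO. The FPKM covers the whole gene in all cells of the ear, and the deleted part was not measured apart from the rest.

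*Fos*, on chromosome 12 of mm9 from 86814840 to 86818223, encodes c-Fos, which is induced within minutes by growth factors and stress. Its level at 2 weeks was 13.4, 15.6, 11.9 and 15.6 FPKM in the wild type and 39.7, 204, 228 and 8.38 FPKM in *Socs3* cKO mice. At 10 weeks it was 7.74, 7.34 and 1.14 FPKM in the wild type and 189.7, 136, 197 and 113 FPKM in *Socs3* cKO mice. At 2 weeks 3 *Socs3* cKO mice were above every wild type mouse and 1 was below, whereas at 10 weeks the genotypes did not overlap. The log2 fold change was 2.15 (SE 0.95) at 2 weeks, 2.38 without *Socs3* cKO replicate 1, and 5.22 (SE 0.57) at 10 weeks.

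*Fosb*, on chromosome 7 from 19888070 to 19895394, encodes another strongly activating subunit. At 2 weeks the level was 2.22, 3.74, 2.69 and 3.22 FPKM in the wild type and 3.14, 37.3, 24.6 and 1.22 FPKM in *Socs3* cKO mice. In the older mice it was 1.72, 2.69 and 0.499 FPKM in the wild type and 95.6, 82.0, 128 and 48.2 FPKM in *Socs3* cKO mice. It was high in the same *Socs3* cKO mice as *Fos* at 2 weeks, replicates 2 and 3, and in all 4 at 10 weeks. On the log2 scale the change was 1.39 (SE 0.99) at 2 weeks and 5.85 (SE 0.49) at 10 weeks. The value at 2 weeks depended on single mice, and was 1.82, 0.65, 0.85 and 2.26 without *Socs3* cKO replicates 1 to 4. The value covers all transcripts of the gene, so the full-length protein and the shorter form without the activation domain cannot be told apart.

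*Fosl1*, on chromosome 19 from 5447703 to 5455945, encodes Fra-1, which accumulates after c-Fos when a signal lasts. Its level at 2 weeks was 0.0695, 0.133, 0.412 and 0.146 FPKM in the wild type and 0.0575, 0.233, 0.272 and 0.499 FPKM in *Socs3* cKO mice. At 10 weeks it was 0.186, 0.0484 and 1.56e-157 FPKM in the wild type, the last of which corresponds to no read. The *Socs3* cKO mice of that age had 35.8, 45.8, 61.7 and 27.3 FPKM, so the gene was near 0 in 3 groups and well measured in 1. The log2 fold change at 10 weeks was 7.98 (SE 0.38) with 0.1 added to each FPKM and 5.28 with 1 added, which shows how much it depends on that constant. At 2 weeks it did not pass the filter on low values. Of its 1707 exonic bases 1162 overlap *Ccdc85b* on the other strand, and the library kit does not mark strand. *Ccdc85b* was at 2.8 to 14.1 FPKM in all 15 mice, the wild type mice with little *Fosl1* included, and reached 10.9 to 14.1 FPKM in *Socs3* cKO mice at 10 weeks against 7.36 to 13.0 FPKM in the wild type.

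*Fosl2*, on chromosome 5 from 32438845 to 32460204, encodes Fra-2, a subunit of differentiated keratinocytes. Its level at 2 weeks was 38.3, 38.2, 34.3 and 36.5 FPKM in the wild type and 6.71, 20.5, 14.3 and 14.8 FPKM in *Socs3* cKO mice. In the older mice it was 12.2, 13.4 and 8.12 FPKM in the wild type and 53.5, 50.7, 48.6 and 30.1 FPKM in *Socs3* cKO mice. The genotypes did not overlap at either age, and *Socs3* cKO mice were lower at 2 weeks and higher at 10 weeks. On the log2 scale the change was -1.49 (SE 0.30) at 2 weeks, -1.17 without *Socs3* cKO replicate 1, and 2.01 (SE 0.25) at 10 weeks.

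*Jun*, on chromosome 4 from 94715725 to 94718913, encodes c-Jun, the partner of c-Fos in the classical AP-1 dimer. At 2 weeks the level was 37.0, 43.6, 39.3 and 35.2 FPKM in the wild type and 5.42, 57.6, 42.6 and 11.9 FPKM in *Socs3* cKO mice. At 10 weeks it was 7.83, 12.0 and 6.59 FPKM in the wild type and 61.5, 42.6, 59.3 and 28.6 FPKM in *Socs3* cKO mice. At 2 weeks the *Socs3* cKO mice lay on both sides of the wild type, and at 10 weeks all of them were above it. The genotypes differed by a log2 fold change of -0.95 (SE 0.67) at 2 weeks, -0.32 without *Socs3* cKO replicate 1, and 2.41 (SE 0.30) at 10 weeks. Antisense transcript BC042782 shares 232 of its exonic bases.

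*Junb*, on chromosome 8 from 87500811 to 87502617, encodes JunB, which in mouse epidermis is known to restrain inflammation. Its level at 2 weeks was 54.8, 53.1, 48.7 and 52.3 FPKM in the wild type and 8.41, 89.3, 166 and 31.96 FPKM in *Socs3* cKO mice. At 10 weeks it was 42.6, 24.01 and 23.6 FPKM in the wild type and 316, 289.8, 351 and 344 FPKM in *Socs3* cKO mice. The spread among *Socs3* cKO mice was wide at 2 weeks (SD 70.3, n = 4) and narrow at 10 weeks (SD 28.1, n = 4), around means of 74.0 and 325 FPKM. The log2 fold change was -0.22 (SE 0.79) at 2 weeks, 0.58 without *Socs3* cKO replicate 1, and 3.48 (SE 0.23) at 10 weeks.

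*Jund*, on chromosome 8 from 73221638 to 73224515, encodes JunD. The mice at 2 weeks had 67.7, 65.7, 69.3 and 57.4 FPKM in the wild type and 4.17, 31.9, 80.1 and 36.0 FPKM in *Socs3* cKO mice. Values at 10 weeks were 65.01, 45.8 and 56.1 FPKM in the wild type and 82.3, 77.3, 91.3 and 90.6 FPKM in *Socs3* cKO mice. The groups at 10 weeks did not overlap, but the difference was small beside that of the other members. Its log2 fold change was -1.37 (SE 0.76) at 2 weeks, -0.52 without *Socs3* cKO replicate 1, and 0.63 (SE 0.17) at 10 weeks. Over all genes the median log2 change was -0.21 at 2 weeks and 0.31 at 10 weeks, and with median-of-ratios scaling, which takes out most of such a shift, the change of *Jund* at 10 weeks was 0.30. Once the trends of each library with gene length and GC content were removed, *Jund* was at -0.14 at 2 weeks and 1.004 at 10 weeks, and *Junb* at 0.58 and 4.10. *Jund* shares 543 exonic bases with the antisense gene Gm11175, and 4.81% of its exonic words of 32 bases occur elsewhere in the genome, against at most 0.276% for the other members.

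**Figure D1:**
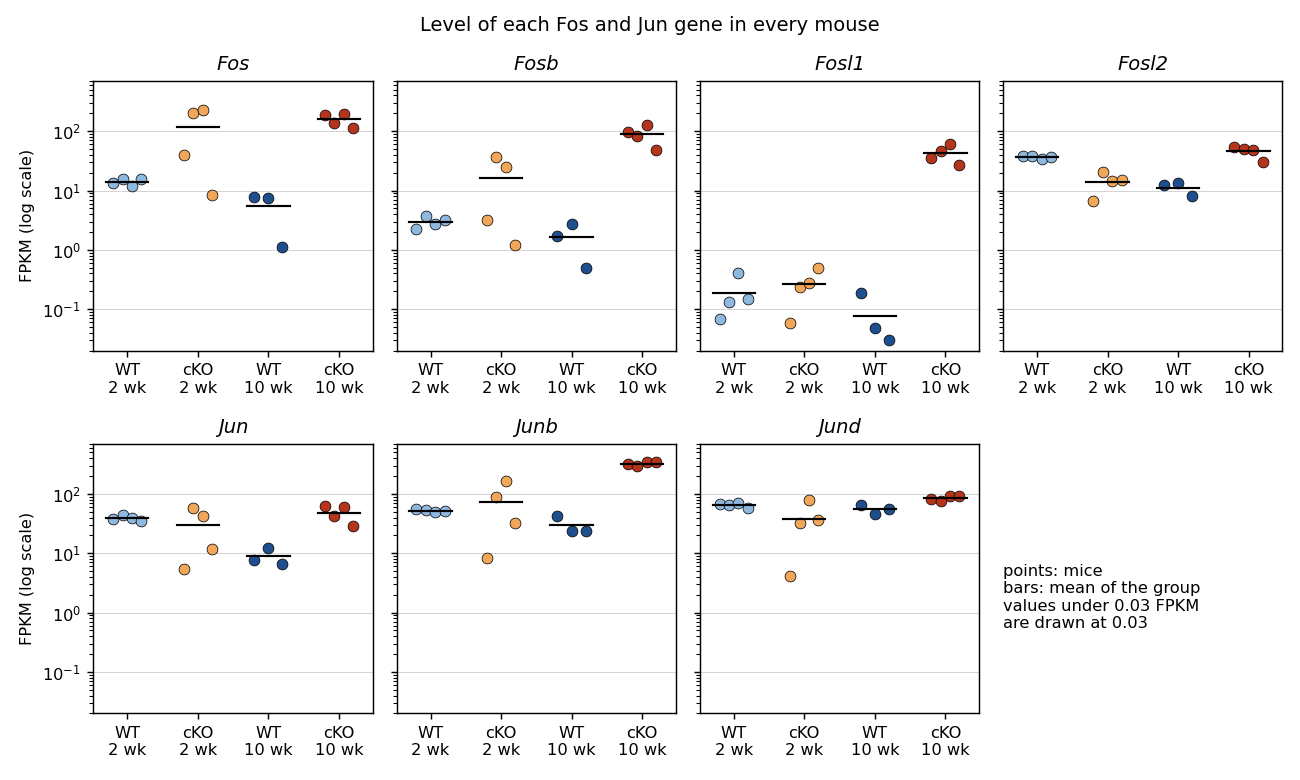
FPKM of the 7 genes on a log axis, with 1 point per mouse and a bar at the mean of each group (wild type, WT, and *Socs3* cKO at 2 and 10 weeks). *Fosl1* reached 27.3 to 61.7 FPKM in *Socs3* cKO mice at 10 weeks and stayed under 0.5 FPKM in the other groups, where 1 value too small for the axis is drawn at 0.03 FPKM.

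A gene was called where limma gave an adjusted p below 0.01 and a log2 change of at least 1 in either direction. At 10 weeks 6 of the 7 members were called higher, all but *Jund*, against 12.5% of the 13105 genes tested, and all 7 had no overlap of the groups with *Socs3* cKO above, against 31.2% of genes. At 2 weeks 1 of 6 tested members, *Fosl2*, was called lower, against 7.19% of 13524 genes, and it was the only member without overlap, as were 33.2% of genes in that direction. In the wild type *Fosl2* and *Jun* were called lower at 10 than at 2 weeks, against 19.4% of 13937 genes, with log2 changes of -1.73 (SE 0.31) and -2.17 (SE 0.60). The ages did not overlap for these and for *Fos* and *Junb*, as for 49.5% of genes in that direction. In *Socs3* cKO mice *Fosl1* and *Fosl2* were called higher at 10 than at 2 weeks, against 2.01% of genes, with log2 changes of 6.96 (SE 0.45) and 1.76 (SE 0.29), and these with *Fosb* and *Junb* did not overlap between the ages, as for 7.71% of genes. These calls use the values that chose the members, and nothing is read from them. The comparisons also share groups of mice with each other.

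The order of the levels differed between groups. In the wild type at 2 weeks it ran from *Jund* (mean 65.05 FPKM) over *Junb* (52.2 FPKM), *Jun* (38.8 FPKM), *Fosl2* (36.9 FPKM), *Fos* (14.1 FPKM) and *Fosb* (2.97 FPKM) to *Fosl1* (0.19 FPKM), and *Jun* and *Fosl2* were the only neighbours whose values overlapped. In the wild type at 10 weeks *Jund* (55.6 FPKM) and *Junb* (30.1 FPKM) stood apart from the rest, while *Fosl2* (11.2 FPKM), *Jun* (8.82 FPKM), *Fos* (5.41 FPKM) and *Fosb* (1.64 FPKM) each overlapped with their neighbour. In *Socs3* cKO mice at 10 weeks *Junb* (325 FPKM) was above every other member in every mouse. It was followed by *Fos* (159 FPKM), *Fosb* (88.4 FPKM), *Jund* (85.4 FPKM), *Jun* (48.0 FPKM), *Fosl2* (45.7 FPKM) and *Fosl1* (42.7 FPKM), with overlap between *Fos* and *Fosb* and among the neighbours from *Fosb* to *Fosl1* except *Jund* and *Jun*. In *Socs3* cKO mice at 2 weeks the spread was too wide for an order over mice, and only *Fosl1* lay apart from the other members in every mouse.

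The Fos family total of the wild type was mainly *Fosl2*. At 2 weeks *Fosl2* made up 71.0%, 66.3%, 69.6% and 65.9% of the summed Fos FPKM, and *Fos* 24.8%, 27.0%, 24.2% and 28.1%. *Fosb* contributed 4.11% to 6.48% and *Fosl1* at most 0.833%. At 10 weeks the wild type shares were 55.8%, 57.1% and 83.2% for *Fosl2*, 35.5%, 31.2% and 11.7% for *Fos*, and 5.11% to 11.5% for *Fosb*. The summed Fos FPKM of the wild type was 49.4 to 57.6 at 2 weeks and 9.75 to 23.5 at 10 weeks, without overlap, but the shares of *Fosl2* (68.2% ± 2.49 against 65.4% ± 15.5, SD, n = 4 and 3) and *Fos* (26.0% ± 1.84 against 26.1% ± 12.7) overlapped between the ages. Most of the spread at 10 weeks came with wild type replicate 3, the mouse with the lowest summed Fos FPKM.

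In *Socs3* cKO mice at 10 weeks the same total held all 4 genes in amounts that could be measured. *Fos* made up 50.6%, 43.3%, 45.3% and 51.8% of it, *Fosb* 25.5%, 26.1%, 29.3% and 22.0%, *Fosl1* 9.55%, 14.6%, 14.2% and 12.5%, and *Fosl2* 14.3%, 16.1%, 11.2% and 13.7%. None of the 4 shares overlapped with the wild type, and *Fos* took the lead from *Fosl2* in 4 of 4 mice. The mean share of *Fosl2* was 51.6 percentage points below the wild type, although its own FPKM was 4.03-fold higher. The mean share of *Fos* was 21.6 points higher, that of *Fosb* 17.6 points and that of *Fosl1* 12.3 points. Without wild type replicate 3 the difference in the share of *Fos* was 14.4 points, and over all mice left out in turn it ran from 14.4 to 26.3 points.

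At 2 weeks the *Socs3* cKO mice were split. *Fos* made up 80.0%, 77.8% and 85.3% of the summed Fos FPKM in replicates 1 to 3 and 33.7% in replicate 4, against 24.2% to 28.1% in the wild type. *Fosl2* made up 13.5%, 7.85% and 5.37% in the former and 59.4% in replicate 4. Replicate 4 was thus led by *Fosl2* like the wild type, although its shares of both genes still lay outside the wild type range. The mean share of *Fos* was 69.2% ± 23.9 (SD, n = 4), 43.2 points above the wild type, and 65.6% ± 27.9 (SD, n = 3) without replicate 1. *Fosb* made up 6.32%, 14.3%, 9.20% and 4.90%, which overlapped with the wild type. *Fosl1* stayed at 2.01% or less, and the sign of its mean difference turned from 0.214 to -0.262 points without replicate 4.

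The 4 mice at 2 weeks also differed in amount. The summed Fos FPKM was 49.6 and 24.9 in replicates 1 and 4 and 262 and 267 in replicates 2 and 3, against 49.4 to 57.6 in the wild type. The summed Fos FPKM of replicate 1 was thus within the wild type range, with another composition, in which *Fos* stood for 80.0%. This is the library with the GC trend of -2.12, and the part of that trend in its sum was not tested. The mean log2 level of the 17 other immediate-early genes in these mice was 2.12, 4.10, 3.94 and 3.10 for replicates 1 to 4, below the 4.20 to 4.33 of the wild type in each of them. At 10 weeks that mean was 5.20 to 5.92 in *Socs3* cKO mice and 2.37 to 3.08 in the wild type. The part of these genes in the result was not tested.

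**Figure D2:**
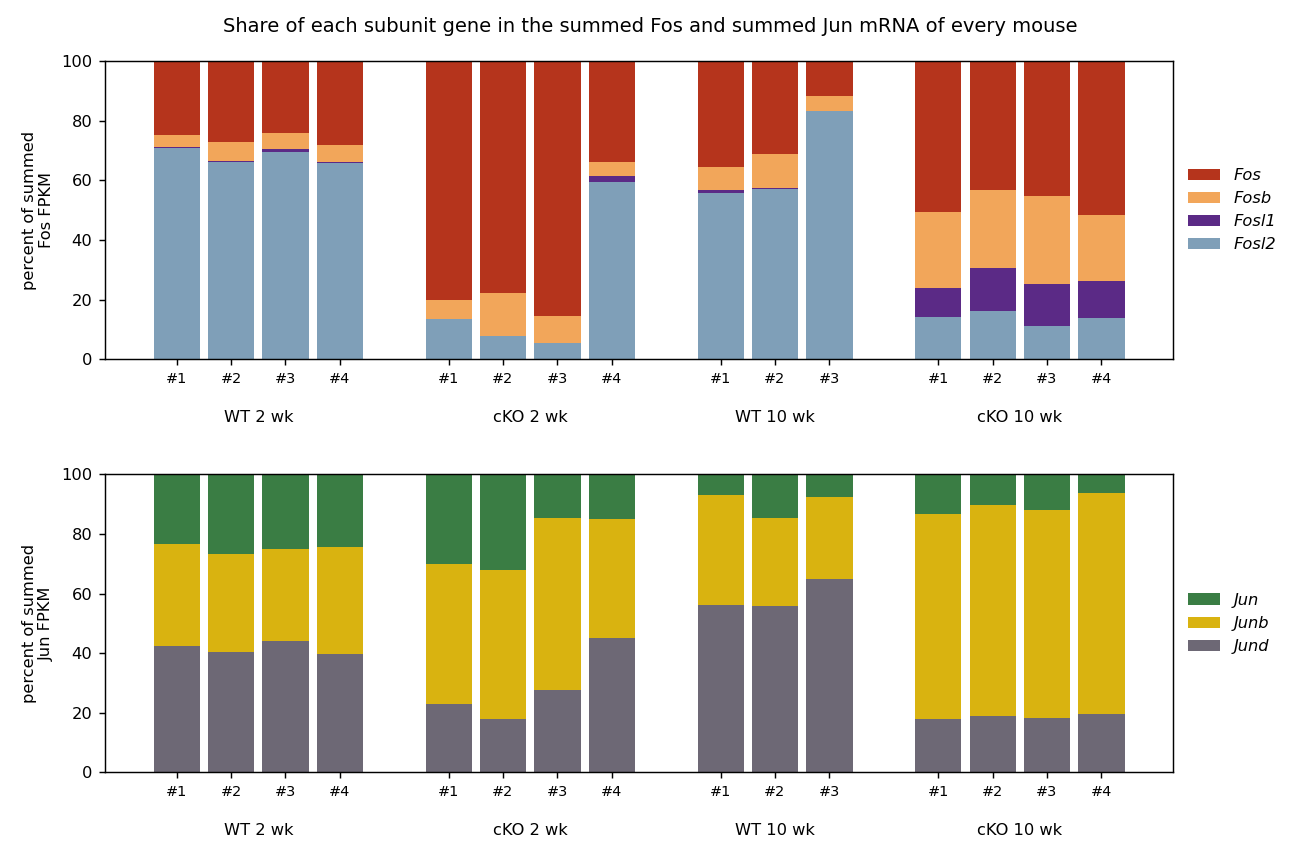
Stacked shares, in percent, of the 4 Fos genes in the summed Fos FPKM (top) and of the 3 Jun genes in the summed Jun FPKM (bottom), with 1 bar per mouse (WT, wild type). *Fosl2* and *Jund* were highest in all 7 wild type mice, *Fos* and *Junb* in all 4 *Socs3* cKO mice at 10 weeks, and *Socs3* cKO replicate 4 at 2 weeks was led by *Fosl2* and *Jund*.

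The Jun family total of the wild type was led by *Jund* in all 7 mice. At 2 weeks *Jund* made up 42.5%, 40.5%, 44.1% and 39.6% of the summed Jun FPKM, *Junb* 34.3%, 32.7%, 30.9% and 36.1%, and *Jun* 23.2%, 26.8%, 24.97% and 24.3%. At 10 weeks *Jund* made up 56.3%, 55.9% and 64.99%, *Junb* 36.9%, 29.3% and 27.4%, and *Jun* 6.79%, 14.7% and 7.63%. The wild type groups did not overlap in the shares of *Jund*, which were 17.4 points higher at 10 weeks, and of *Jun*, with a difference of -15.1 points, while those of *Junb* overlapped. The summed Jun FPKM, 145 to 162 at 2 weeks, was 81.9 to 115.4 in the older mice, with a smaller part of *Jun*.

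In *Socs3* cKO mice at 10 weeks *Junb* made up 68.7%, 70.8%, 70.0% and 74.3% of the summed Jun FPKM. *Jund* made up 17.9%, 18.9%, 18.2% and 19.6%, and *Jun* 13.4%, 10.4%, 11.8% and 6.17%. The share of *Junb* was 39.7 points above the wild type and that of *Jund* 40.5 points below, both without overlap, and every mouse left out in turn moved them by little, to 37.8 to 42.6 and to -37.5 to -42.0 points. The share of *Jun* was 10.45% ± 3.11 (SD, n = 4) against 9.71% ± 4.36 (SD, n = 3) in the wild type, a difference of 0.734 points. Its sign turned without wild type replicate 1 (-0.73) or 3 (-0.307), without *Socs3* cKO replicate 1 (-0.249) and with the trends of length and GC content removed (-1.32). The FPKM of *Jun* was 5.33-fold higher in *Socs3* cKO mice, while its part of the Jun total had no stable direction. *Junb* exceeded *Jund* by 3.83-fold, 3.75-fold, 3.85-fold and 3.80-fold in the 4 mice, against 0.655, 0.524 and 0.421 in the wild type.

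At 2 weeks *Junb* made up 46.7%, 49.9%, 57.5% and 40% of the summed Jun FPKM in *Socs3* cKO mice, above all 4 wild type mice. The share of *Jund* was 23.1%, 17.9%, 27.7% and 45.1%, and that of *Jun* was 30.1%, 32.2%, 14.8% and 14.9%. *Jund* was again low in 3 mice, and just above the wild type range in replicate 4, and *Jun* lay on both sides of the wild type. The difference in the share of *Junb* was 15.04 points, 49.2% ± 8.80 (SD, n = 3) against 33.5% ± 2.21 (SD, n = 4) when replicate 1 was left out. The difference in the share of *Jund* was -13.2 points and became -4.62 points once those trends were removed. The same step moved that of *Jun* from -1.83 to -8.63 points, and it was -4.21 points without replicate 1. The GC content of *Junb* and *Jund*, at 62.6% and 62.7%, is the highest of the members, that of *Jun* is 55.5%, and the summed Jun FPKM of replicate 1 was 18.0 against 79.9 to 289 in replicates 2 to 4. The part of GC content in these values was not tested further.

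Both totals can be set against each other, since Fos proteins pair with Jun proteins. The ratio of summed Fos to summed Jun FPKM was 0.339, 0.355, 0.314 and 0.383 in the wild type at 2 weeks and 0.189, 0.287 and 0.113 at 10 weeks. Among *Socs3* cKO mice it was 2.76, 1.46, 0.925 and 0.311 at 2 weeks and 0.815, 0.768, 0.868 and 0.473 at 10 weeks. Jun mRNA exceeded Fos mRNA in all wild type mice and in all *Socs3* cKO mice at 10 weeks, and 2 of the 4 *Socs3* cKO mice at 2 weeks had more Fos than Jun mRNA. At 10 weeks the log2 ratio was 1.96 above the wild type without overlap. At 2 weeks it was 1.58 above the wild type with overlap, 1.11 without replicate 1, 2.16 without replicate 4, and 0.95 with the trends of length and GC content removed. mRNA amounts do not give the amounts of protein or of dimers, and in whole ear fewer cells of a type and less RNA per cell cannot be told apart.

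**Figure D3:**
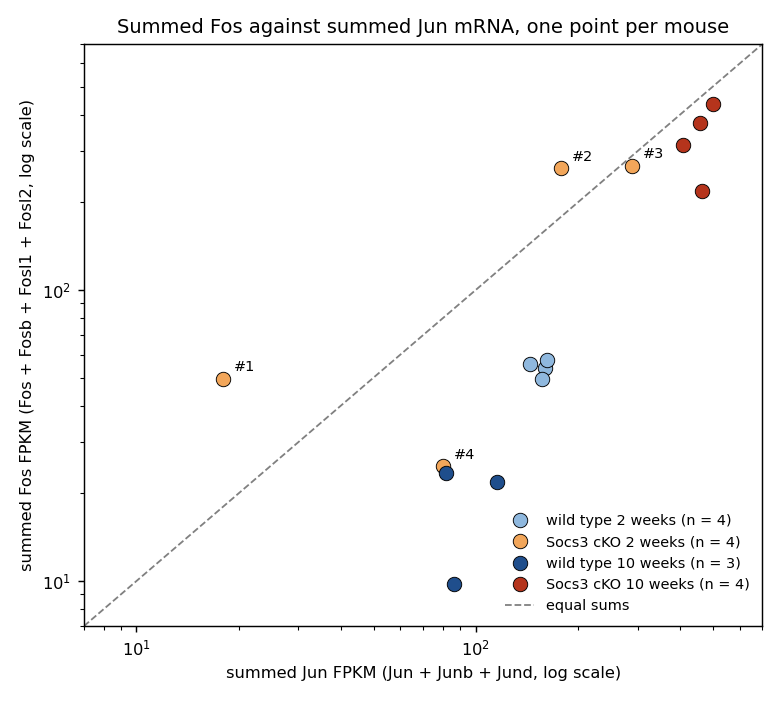
Summed Fos FPKM against summed Jun FPKM on log axes, with 1 point per mouse and a dashed line where both are equal. The wild type mice lie below the line at ratios of 0.113 to 0.383, the *Socs3* cKO mice at 10 weeks lie closer to it at 0.473 to 0.868, and the numbered *Socs3* cKO mice at 2 weeks range from 0.311 to 2.76.

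Fold changes and parts of the total ranked the genes differently. At 10 weeks the summed Fos FPKM was 336 ± 92.2 (SD, n = 4) in *Socs3* cKO mice and 18.4 ± 7.51 (SD, n = 3) in the wild type. Of the difference of 318 FPKM between the means, *Fos* accounted for 48.4%, *Fosb* for 27.3%, *Fosl1* for 13.4% and *Fosl2* for 10.9%. *Fosl1* had the largest fold change of the 7 genes and was the third of 4 in this order. The summed Jun FPKM was 459 ± 37.7 (SD, n = 4) against 94.5 ± 18.2 (SD, n = 3), and *Junb* accounted for 81.1% of the difference of 364 FPKM. *Jun* accounted for 10.8% and *Jund* for 8.17%, although their fold changes were 5.33 and 1.55.

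At 2 weeks the summed Fos FPKM was 151 ± 132 (SD, n = 4) in *Socs3* cKO mice and 54.1 ± 3.50 (SD, n = 4) in the wild type. *Fos* was 106 FPKM higher, *Fosb* 13.6 FPKM higher and *Fosl2* lower by 22.8 FPKM, so *Fos* alone came to 109% of the difference of 96.7 FPKM. The summed Jun FPKM was 141 ± 119 (SD, n = 4) against 156 ± 7.71 (SD, n = 4), with *Junb* 21.8 FPKM higher and *Jund* lower by 27.0 FPKM. Without replicate 1 the mean summed Jun FPKM was 183, above the wild type, with *Junb* at 95.9 FPKM and *Jund* at 49.4 FPKM, and the mean summed Fos FPKM was 185. Both totals overlapped between the genotypes at this age. In the wild type, *Fosl2* stood for 71.6% of the fall of the Fos total between 2 and 10 weeks, and *Jun* for 48.7% and *Junb* for 36.0% of that of the Jun total.

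**Figure D4:**
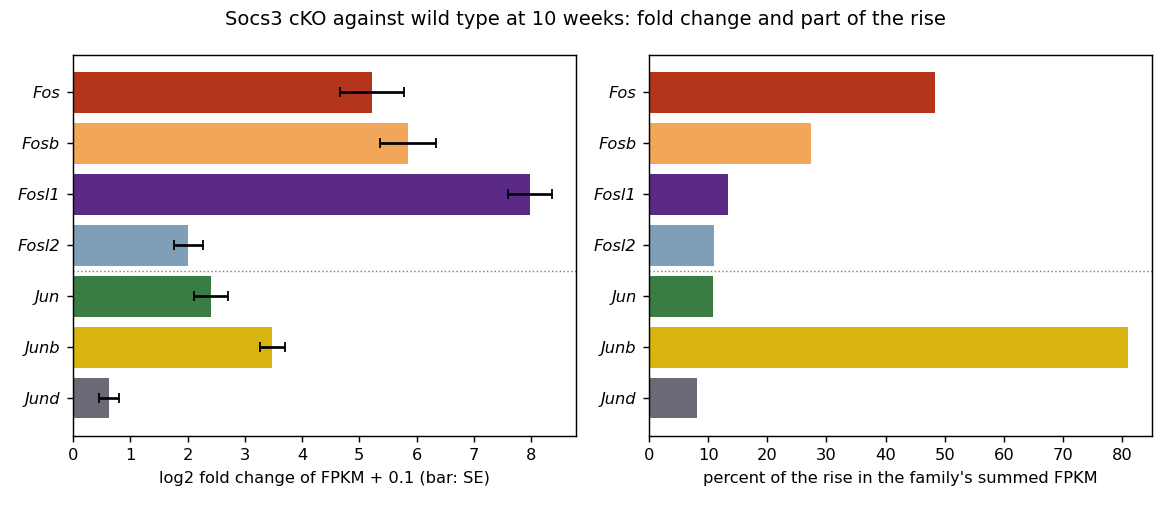
*Socs3* cKO against wild type at 10 weeks, with the log2 fold change of each gene and its SE on the left and the percent of the rise in the family's summed FPKM on the right. *Fosl1* has the longest bar on the left (7.98) and a short bar on the right (13.4%), while *Junb* stands for 81.1% of the rise of the Jun total.

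The genes around AP-1 were counted from 8 lists of 142 genes, 141 of which are in the files, with the 7 members left out. At 10 weeks 48 of 134 tested genes were called higher and 1 was called lower, 36.6% in all against 14.9% of all genes tested, and the median log2 change was 0.70 against 0.31. At 2 weeks 4 of 132 were called higher and 8 lower, 9.09% in all against 14.4%, and the median was -0.48 against -0.21. The count at 10 weeks was 32 to 52 higher when each mouse was left out in turn. The counts at 2 weeks moved to 5 higher and 19 lower without *Socs3* cKO replicate 1, to 5 and 20 without replicate 2, to 2 and 3 without replicate 3 and to 2 and 4 without replicate 4. Without a wild type mouse they were 1 and 3, or 2 and 3 for wild type replicate 4. Of the 12 genes called at 2 weeks, 10, 12, 5 and 6 were still called without *Socs3* cKO replicates 1 to 4, and 4, 4, 4 and 5 without wild type replicates 1 to 4. The change differed between the ages, by limma's test of the interaction, for 51 of 136 genes (37.5%, against 25.6% of all genes).

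Among the bZIP proteins that can pair with Fos or Jun proteins, 7 of 17 tested genes rose at 10 weeks. For this and the lists that follow, 12.5% of all genes tested were called higher at 10 weeks. At 2 weeks 14.4% of all genes were called in either direction. *Atf3*, a stress-induced repressor, rose from 2.92 to 74.9 FPKM in the mean (log2 fold change 4.65, SE 0.25, limma adjusted p = 6.19e-06). *Maff*, a small Maf protein without an activation domain, rose from 3.46 to 25.5 FPKM (2.92, SE 0.26, limma adjusted p = 0.000106), and *Atf7* from 0.373 to 3.20 FPKM (2.75, SE 0.32, limma adjusted p = 0.000445).

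Of 30 tested genes of the MAP kinase cascades that activate Fos and Jun, 5 rose at 10 weeks, a share near the 12.5% of all genes. *Rps6ka3*, the kinase RSK2, which stabilizes c-Fos, rose at both ages, from 7.49 to 16.8 FPKM at 2 weeks (1.14, SE 0.18, limma adjusted p = 0.00252) and from 3.03 to 18.0 FPKM at 10 weeks (2.71, SE 0.37, limma adjusted p = 0.000962). *Map3k8*, the kinase Tpl2, had a log2 change of 1.96 (SE 0.23, limma adjusted p = 0.000491) and *Rps6ka4*, the kinase MSK2, of 1.63 (SE 0.29, limma adjusted p = 0.00319) at 10 weeks. *Mapk7*, which encodes ERK5, fell at 2 weeks from 13.9 to 3.46 FPKM (-2.23, SE 0.50, limma adjusted p = 0.00988). Of 14 factors known to bind the *Fos* and *Jun* promoters 6 rose at 10 weeks, led by *Mef2a* (3.75, SE 0.43, limma adjusted p = 0.000402), *Mef2d* (3.41, SE 0.44, limma adjusted p = 0.000712) and *Elk4* (2.62, SE 0.40, limma adjusted p = 0.00155). At 2 weeks limma called 0 of the 14, with 3 higher and 7 lower at an unadjusted p under 0.05, as were 7842 of all 13524 genes.

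Other lists hold genes that act on Fos and Jun products. Of 12 genes for the decay of mRNAs with AU-rich elements, which *Fos* mRNA carries, 5 rose at 10 weeks. *Zfp36*, whose protein tristetraprolin binds such elements, rose from 13.3 to 221 FPKM (4.04, SE 0.30, limma adjusted p = 4.89e-05), *Btg2* from 12.7 to 107 FPKM (3.08, SE 0.19, limma adjusted p = 1.26e-05) and the deadenylase gene *Cnot6* from 4.48 to 18.0 FPKM (2.39, SE 0.53, limma adjusted p = 0.00749). *Hnrnpd*, also a binder of AU-rich mRNAs, fell at 2 weeks from 19.3 to 7.44 FPKM (-1.43, SE 0.26, limma adjusted p = 0.00447). Of 15 genes for protein turnover and cofactors, 2 rose at 10 weeks, again a share near the 12.5% of all genes. They were the coactivator *Crebbp* (2.20, SE 0.51, limma adjusted p = 0.00891) and the corepressor *Ncor1* (1.36, SE 0.30, limma adjusted p = 0.00787). *Cops5*, which encodes the Jun-binding protein Jab1, rose at 2 weeks from 52.6 to 120.0 FPKM (1.13, SE 0.25, limma adjusted p = 0.00948), and was at 0.93, under the threshold of 1, without *Socs3* cKO replicate 1.

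Known AP-1 responsive genes for proteases, receptors and growth factors rose in 9 of 17 cases at 10 weeks. *Il6* rose from 0.256 to 69.4 FPKM (7.84, SE 0.52, limma adjusted p = 2.14e-05) and *Ptgs2*, which encodes cyclooxygenase-2, from 0.471 to 35.4 FPKM (6.10, SE 0.36, limma adjusted p = 1.22e-05). At 2 weeks *Areg* (-2.37, SE 0.24, limma adjusted p = 0.000287), *Vegfa* (-1.85, SE 0.38, limma adjusted p = 0.00688) and *Ccnd1* (-1.21, SE 0.24, limma adjusted p = 0.00585) fell, and the integrin gene *Itga2* rose (1.62, SE 0.33, limma adjusted p = 0.00692). Without *Socs3* cKO replicate 1 the change of *Ccnd1* was -0.98, short of the threshold. For *Areg*, an epidermal growth factor receptor ligand, the interaction was 5.30 (limma adjusted p = 3.05e-06), with a rise from 0.398 to 3.71 FPKM at 10 weeks. Of 12 epidermal differentiation genes with AP-1 sites, 1 fell at 10 weeks and 0 rose, 8.33% in all against 14.9% of all genes. This was *Lor*, which encodes the cornified envelope protein loricrin, and it fell from 1220 to 197 FPKM (-2.62, SE 0.31, limma adjusted p = 0.000452). At 2 weeks *Sprr1a*, another envelope gene, fell from 784 to 200 FPKM (-1.98, SE 0.15, limma adjusted p = 8.96e-05) and *Lce1a1* rose from 226 to 812 FPKM (1.83, SE 0.19, limma adjusted p = 0.000314).

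The other immediate-early genes, which respond to the same signals as *Fos*, rose in 14 of 17 cases at 10 weeks, and all 17 log2 changes were positive. *Nr4a3* was listed at 0 FPKM in every wild type mouse and had a mean of 10.9 FPKM in *Socs3* cKO mice. *Nr4a1* rose from 3.59 to 290 FPKM (6.33, SE 0.22, limma adjusted p = 3.86e-07) and *Nr4a2* from 0.914 to 29.3 FPKM (4.75, SE 0.40, limma adjusted p = 8.63e-05). These 3 genes encode orphan nuclear receptors. At 2 weeks 1 of 16 tested genes was called, *Dusp2*, a phosphatase of MAP kinases, which fell from 14.2 to 0.928 FPKM (-3.85, SE 0.24, limma adjusted p = 4.45e-05).

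**Figure D5:**
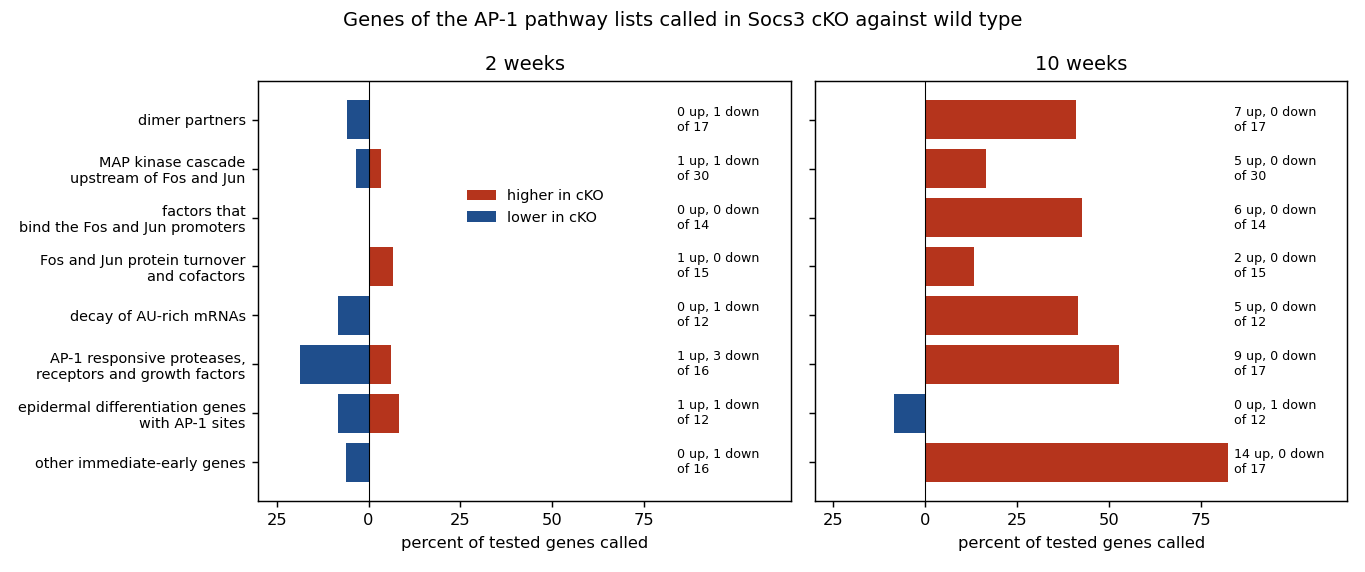
Percent of the tested genes of each AP-1 pathway list called higher (red) or lower (blue) in *Socs3* cKO against wild type mice at 2 weeks (left) and 10 weeks (right), with the counts beside the bars. At 10 weeks 48 genes were called higher and 1 lower over the lists, and at 2 weeks 4 were higher and 8 lower.

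Across the 15 mice, the genes whose log2 levels were most like the summed Fos FPKM, of 13930 genes, were *Zfp36* (r = 0.958), *Atf3* (0.948), *Dusp1* (0.936), *Cyr61* (0.935) and *Hpse* (0.927). With group means subtracted the correlations were 0.916, 0.968, 0.964, 0.917 and 0.830. Most like the summed Jun FPKM were *Ier2* (r = 0.978), *Gadd45b* (0.942), *Pim3* (0.942), *Rnf217* (0.939) and *Socs3* (0.938), and 0.982, 0.927, 0.920, 0.906 and 0.911 with group means subtracted. The median over all genes was 0.16 for summed Fos and 0.23 for summed Jun. The points share their libraries and groups, and these values describe likeness only.

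Markers of the cell types in the ear were set beside the shares. Summed FPKM of 8 keratinocyte markers overlapped between the genotypes at both ages (*Socs3* cKO 6890 to 12800 against 9040 to 9660 at 2 weeks, 8250 to 12100 against 6250 to 10500 at 10 weeks). A sum follows the most abundant genes of a list. The mean log2 level of these 8 markers overlapped at 2 weeks. At 10 weeks it was 8.51 to 9.19 in *Socs3* cKO mice against 7.39 to 8.04 in the wild type, without overlap. In summed FPKM, skeletal muscle markers were above the wild type at 2 weeks (2140 to 4320 against 884 to 1340) and below it at 10 weeks (515 to 912 against 1200 to 2030). Fibroblast markers went the other way, 5390 to 7440 against 13000 to 15300 at 2 weeks and 7160 to 12400 against 4130 to 7140 at 10 weeks. Macrophage (473 to 933 against 371 to 424), T cell, mast cell and adipocyte markers were above the wild type at 2 weeks. Hair shaft and endothelial markers were below it, and the sums of all of these overlapped at 10 weeks. The mean log2 level at 10 weeks was above the wild type without overlap for macrophage, mast cell, adipocyte and endothelial markers. It was 6.08 to 6.69 against 5.23 to 5.92 for macrophage and 4.49 to 5.31 against 3.77 to 4.16 for mast cell markers. By this measure T cell, hair shaft and skeletal muscle markers overlapped at 10 weeks, and T cell and endothelial markers at 2 weeks. The hair shaft markers differed most, with 0.937 to 13.0 FPKM against 586 to 964 at 2 weeks, and were at 10.9 FPKM or less in every mouse at 10 weeks. Neutrophil markers summed to 12.4 FPKM or less in every mouse and cartilage markers overlapped at both ages. The part of the cell composition in the shares was not tested.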

How the data were processed

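The authors aligned single reads of 50 bases (TruSeq v2 libraries, no strand kept) to mm9 with TopHat2 (version 2.1.0) and deposited 1 FPKM value per gene and mouse. Cufflinks is named in the processing notes of the submitters, and its version and annotation are not given in the sources used here. The authors tested genes with edgeR. That step was not repeated, since the deposited values are FPKM. Depth is therefore an estimate and covers counting error only. The remaining wild type mice of the study were not analysed here.

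Shares were computed from FPKM within each mouse, so scaling between libraries does not enter them, while trends of a library with length and GC content do. log2(FPKM + 0.1) was compared with limma (version 3.58.1, R 4.3.3), letting the prior variance follow the mean level, 2-sided with Benjamini-Hochberg adjustment, within each age, where 3 or more mice reached an FPKM of 1. Changes with age and the interaction were fitted on all 15 mice. Genes were called at an adjusted p below 0.01 and a log2 change of at least 1, and interactions at an adjusted p below 0.01. The same fit within each age was also run on simulated data with known changes, and the outcome is not given here. Those data were drawn gene by gene without library trends or batches, so they cannot show how such trends act on the calls. Python 3.11.15 was used otherwise.

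The members and the gene lists were chosen with earlier results of these data known. From each list and age, all called genes were named where at most 4 were called in a direction, and otherwise the 3 with the largest change, except genes that are not reported here. Of 21110 genes, 97.3% were found by symbol in a GENCODE annotation of mm9. Alternatives were other pseudocounts, no filter, the replicate number as a block, scaling by median-of-ratios or by quantiles, removal of the trends with length and GC content, shares from group means or medians, values under 0.1 FPKM set to 0, and leaving out each mouse.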

Additional observations from a re-analysis of the deposited data

Results flagged for a closer look

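*Socs3* cKO replicate 4 at 2 weeks stood far from the other 3 mice of its group in the composition of the Fos total. Its share of *Fos* was 33.7%, its share of *Fosl2* was 59.4% and its share of *Fosl1* was 2.01%, each far from the other mice by Dixon's gap over range. These were 3 of 57 group values examined in this way. The 57 values share mice and totals, so their number cannot be set against a rate by chance. The shares are parts of 1 total, so they are not separate events, and they rest on values that chose the members, so nothing is read from them. The share of *Fosl1* rests on an estimated 14.3 reads. *Socs3* FPKM in this mouse was 3.51.

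*Fosl2* moved in opposite directions at the ages. Its mean was -22.8 FPKM relative to the wild type at 2 weeks, with every *Socs3* cKO mouse below every wild type mouse, and 34.5 FPKM above it at 10 weeks, with every mouse above. The difference between the ages was not tested for this gene, which was selected on these values.

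For 51 of 136 tested genes of the AP-1 pathway lists, limma's interaction test found that the genotype difference differed between the ages (adjusted p below 0.01), against 25.6% of all genes. For all but 1 of them the genotype difference was more positive at 10 weeks. The median genotype difference over all genes also moved that way, from -0.21 at 2 weeks to 0.31 at 10 weeks. The share in that direction among all genes is not given here.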

How the results depend on the processing

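The differences in the 7 shares and the log2 ratio of summed Fos to summed Jun moved by less than 1 SD of the mice in the more variable group under every alternative at both ages. That SD is wide at 2 weeks. With trends of length and GC content removed, the share difference went from -13.2 to -4.62 points for *Jund* and from -1.83 to -8.63 for *Jun* at 2 weeks, and from 39.7 to 43.99 for *Junb* at 10 weeks. The sign of the *Jun* difference at 2 weeks turned without *Socs3* cKO replicate 3 (0.918) or 4 (0.867). Leaving out each mouse in turn, the share of *Fosl2* differed by -59.3 to -41.2 points at 2 weeks and by -56.3 to -42.6 points at 10 weeks. The log2 fold change of *Fosl1* at 10 weeks was 5.28 with a pseudocount of 1 and 9.71 with 0.01, and that of *Jund* was 0.30 with median-of-ratios scaling. With trends of length and GC content removed, *Jund* was at 1.004 and *Junb* at 4.10 at 10 weeks, and at 2 weeks *Junb* turned from -0.22 to 0.58 and *Jund* went from -1.37 to -0.14. For single genes, that removal and the pseudocount of 0.01 were chosen after seeing the data.

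Counts of calls were less stable. At 2 weeks 979 genes were called higher and 972 lower, and at 10 weeks 1638 were called higher and 319 lower. The interaction count of 51 pathway genes ran from 36 to 75 and the count of 48 pathway genes called higher at 10 weeks from 32 to 52 over all alternatives. The replicate number did not pair the mice (same-number correlations of -0.041 to 0.135 at 2 weeks and -0.209 to 0.068 at 10 weeks). With the number as a block 400 and 351 genes were called higher and lower at 2 weeks, and 1 and 3 pathway genes. With trends of length and GC content removed, 553 genes were called higher at 2 weeks, pathway genes numbered 1 higher and 17 lower, and 3 pathway genes were lower at 10 weeks. At 2 weeks quantile normalization gave 9 pathway genes higher and 20 lower, and a pseudocount of 1 gave 15 lower. At 10 weeks median-of-ratios scaling gave 952 genes higher and 717 lower, quantile normalization 923 and 776, and no filter 718 lower, with 4, 3 and 2 pathway genes lower. The cause of these shifts was not tested.

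Leaving out each mouse, 491 to 1463 genes were called higher and 363 to 1885 lower at 2 weeks. At 10 weeks 648 to 2323 were higher and 97 to 353 lower. The counts moved by over 1.5 times without any 1 of the mice at 2 weeks (for genes called higher, without any except *Socs3* cKO replicates 1 and 2). At 10 weeks they did so without wild type replicates 1 and 3 and *Socs3* cKO replicates 1 to 3 (for genes called lower, without wild type replicates 1 and 3 and *Socs3* cKO replicate 2). The lowest counts at 10 weeks came without wild type replicate 3 and the highest at 2 weeks without *Socs3* cKO replicate 2. Pathway genes numbered 1 to 5 higher and 3 to 20 lower at 2 weeks and 1 to 2 lower at 10 weeks. Of 649 values of single genes under the alternatives, the fold changes of the members included, 92 lost the call. All of these were of named pathway genes. At 2 weeks up to 8 of the 12 named genes lost it under 1 alternative. At 10 weeks at most 4 of 21 named genes did so without any 1 mouse (*Cnot6*, *Crebbp*, *Ncor1* and *Rps6ka4*), and no called gene changed direction. Of these 21 genes, 3 lost the call with no filter and 3 with quantile normalization. With median-of-ratios scaling 2 lost it, and 2 with trends of length and GC content removed.

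Depth limits *Fosl1* most, whose shares outside *Socs3* cKO mice at 10 weeks rest on few reads.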
